A study of Caenorhabditis elegans with 80 samples.

Results

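W06H8.2, Y38H6C.8, F45D3.4, C50F7.5, C32H11.4, F55G11.2 and T19D12.3 are 7 Caenorhabditis elegans genes that carry only a sequence name, made of the genomic clone and the number of the gene on it. They were found by matching these names to the probe annotation, and they make up 7 of 17118 genes and 10 of 22548 probe sets measured. The genes had been chosen by their measured signal, as genes raised by acrylamide, by cadmium and by mercury. Which doses and times served in that choice is not stated. The top dose against unexposed controls was taken as the contrast behind it, so those differences are given as a description without a test. Doses between control and the top, and the time course at those doses, are the subject of the tests. Whether they also entered the choice is not known, so the tests may not be independent of it.

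Synchronised whole worms in mid-L4, the stage before adulthood, were exposed in CeHR, a bacteria-free liquid medium. Acrylamide, a reactive monomer, was given at 0, 100, 500 and 1000 mg/L, cadmium at 0, 5, 20 and 50 mg/L, and mercury at 0, 5, 10 and 25 mg/L, called control, low, mid and high. Each chemical formed a series with its own controls, worms were taken at 4 h and 8 h, and an unexposed control was also taken at 0 h. No strain, no chemical form of the metals and no genotype is given in the sources used here. The 80 arrays, 1 per sample, fell into 27 groups of 3, apart from mid cadmium at 4 h, which had 2. Exposures were made in triplicate per the labels, which also speak of a single flask for the 0 h control, so arrays of a group may share more than the labels tell and p-values reflect only how these arrays vary, part of which may be technical. Values are MAS5 signals, which are array brightness on a linear scale and are not comparable between probe sets. Changes are differences of log2(signal + 51), where adding 51 understates the change of dim genes.

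Worm genes with only a sequence name have no published class name, and for W06H8.2, Y38H6C.8, F45D3.4 and C50F7.5 no role is stated here. C32H11.4 and F55G11.2 encode proteins with a CUB-like domain. Genes of this family on chromosome IV are known from infection studies as targets of the PMK-1 p38 kinase pathway, are expressed in the intestine, and are widely used as readouts of the worm's immune and stress responses. T19D12.3 is annotated as a pseudogene in RefSeq (assembly WBcel235), and transcripts of a pseudogene can still be measured by an array. W06H8.2, Y38H6C.8 and F45D3.4 lie on chromosome V, C50F7.5, C32H11.4 and F55G11.2 on IV, and T19D12.3 on II. Between C32H11.4 and F55G11.2 lie 14 other protein-coding genes.

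At the top dose every array of every gene, read by its chosen probe set, lay above all controls of the same chemical and time. This held for all 42 combinations of gene, chemical and time. The share of all tested probe sets that did so at both times was 4.5% in the acrylamide series, 4.49% in the cadmium series and 10.4% in the mercury series. Nothing is read from the genes' count because this contrast is taken to have chosen them. Fold differences of high dose over control ran from 25.8 to 109 for W06H8.2, from 4.16 to 24.2 for F55G11.2 and from 2.45 to 15.6 for C32H11.4. They ran from 2.15 to 19.1 for T19D12.3, from 6.2 to 15.3 for Y38H6C.8, from 2.73 to 13.6 for C50F7.5 and from 2.87 to 6.51 for F45D3.4. W06H8.2, Y38H6C.8 and T19D12.3 were dim in unexposed worms, with a signal under 131, the level used to call a probe set measurable, on 26, 27 and 26 of 27 control arrays. F45D3.4 and C32H11.4 were above that level on all 27 control arrays, with median control signals of 819 and 784.

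**Figure D1:**
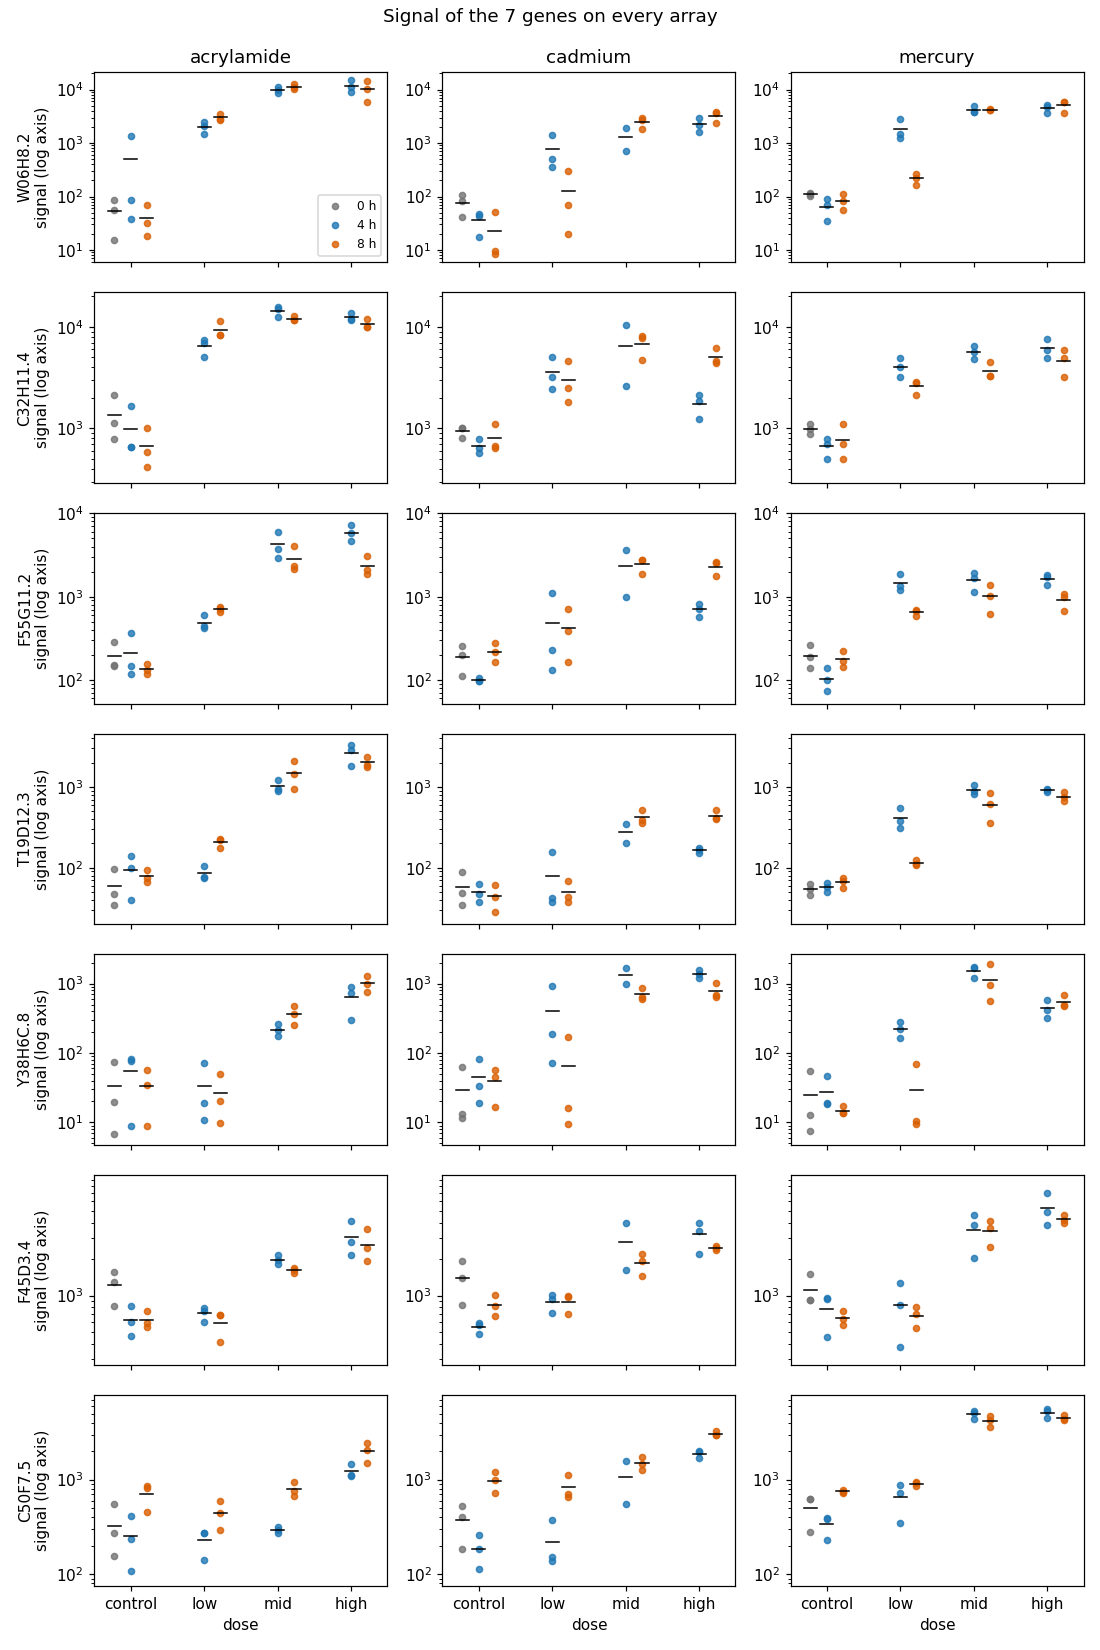
Signal of each gene on every array (log axis, arbitrary units) by dose for acrylamide, cadmium and mercury, with 0 h, 4 h and 8 h in grey, blue and orange and short black lines at group means. W06H8.2 and C32H11.4 were already high at the low acrylamide dose, where T19D12.3, Y38H6C.8, F45D3.4 and C50F7.5 were not called at either time.

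At the low and mid doses the genes passed the test in 53 of 84 combinations with control, all higher, using limma over all probe sets of a series with Benjamini-Hochberg adjustment and a threshold of 0.05. The control arrays are shared with the contrast that chose the genes. A probe set was tested only where at least 3 arrays of its series exceeded 131. W06H8.2, Y38H6C.8 and T19D12.3 were under that level on 26, 27 and 26 of 27 control arrays. These genes therefore met the filter through exposed arrays, the high dose included, and had little room to be called lower. The direction of their calls is thus not independent of the filter. At the low dose 16 of 42 combinations were called and at the mid dose 37 of 42. For low acrylamide, 2 of 7 genes rose at 4 h and 3 of 7 at 8 h, where 0.151% and 0.32% of all probe sets rose. Low cadmium raised 2 of 7 at 4 h and 1 of 7 at 8 h, against 0.493% and 0.253% of all probe sets. Low mercury raised 5 of 7 at 4 h and 3 of 7 at 8 h, against 1.04% and 0.692%. At the mid dose 5 and 6 of 7 rose with acrylamide at 4 h and 8 h, where the background was 1.3% and 1.93%. With cadmium, 7 rose at 4 h and 5 at 8 h, against 4.49% and 1.58%, and with mercury all 7 rose at both times, against 6.92% and 10.2%.

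The genes divided by where along the dose series the change appeared. C32H11.4 was called at the low dose in 6 of 6 combinations of chemical and time, W06H8.2 in 5 and F55G11.2 in 3. T19D12.3 and Y38H6C.8 were each called once at the low dose, with mercury at 4 h, and F45D3.4 and C50F7.5 never. At the mid dose W06H8.2, C32H11.4, F55G11.2 and T19D12.3 were called in 6 of 6, Y38H6C.8 and F45D3.4 in 5 and C50F7.5 in 3. The map of changes shows the genes in nearly this order from top to bottom, with W06H8.2 placed above C32H11.4.

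**Figure D2:**
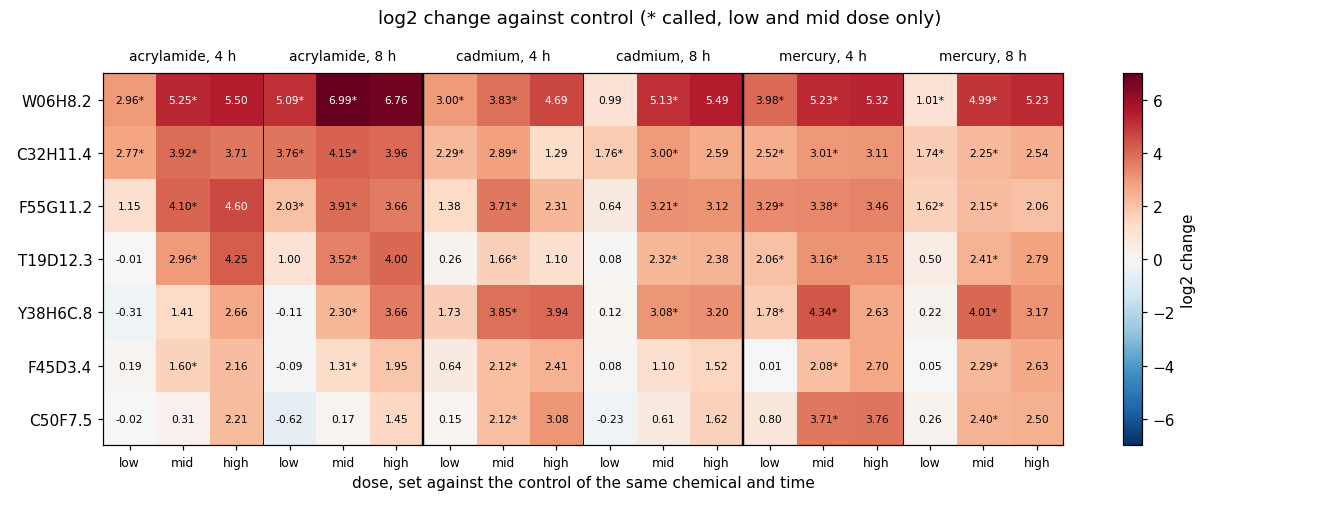
Difference in log2(signal + 51) between each dose and the control of the same chemical and time, for 7 genes (rows) and 18 dose groups (columns), red where higher than control. Asterisks mark adjusted p under 0.05 at the low and mid doses, and high-dose values carry no test. C32H11.4 has an asterisk in all 12 low and mid columns, and C50F7.5 in 3.

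C32H11.4, one of the CUB-like genes, had the signals 658, 655 and 1655 in acrylamide controls at 4 h, 5094.5, 6967 and 7377 at low dose, 14991, 12611 and 15602 at mid dose and 11610, 13685 and 12008.5 at high dose. No exposed array reached down to the controls, and the mid and high groups overlapped. Low acrylamide against control differed by 2.77 (SE 0.33, adjusted p = 6.51e-05) at 4 h and by 3.76 (SE 0.33, adjusted p = 5.01e-07) at 8 h, a 13.5-fold difference. At 8 h of low acrylamide C32H11.4 stood at 11357, 8273 and 8250 against 1013, 589 and 416 in control. Mean signal at low acrylamide was 52.1% of that at the high dose at 4 h and 87.7% at 8 h.

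In mercury C32H11.4 reached most of its change on the log2 scale at the low dose. Its mean signal at low mercury was 66.1% of that at the high dose at 4 h and 55.6% at 8 h. Signals at 4 h were 710, 498 and 793 in control, 4988, 3195 and 4018 at low, 4812, 5687 and 6502 at mid and 4996, 5903 and 7565 at high dose, so the low group overlapped the mid one and ended just short of the high one. Low mercury against control differed by 2.52 (SE 0.25, adjusted p = 5.08e-08) at 4 h and 1.74 (SE 0.25, adjusted p = 0.000213) at 8 h. In cadmium at 4 h the signals were 784, 569 and 647 in control, 3211, 2469 and 5065 at low, 10476 and 2600.5 at mid, and 1846, 2128 and 1236 at high dose. High cadmium thus lay below all low and mid arrays at 4 h, with a mean mid signal at 376% of the high one, while the pair of mid arrays differed widely. Low cadmium differed from control by 2.29 (SE 0.39, adjusted p = 0.00149) at 4 h. The low cadmium call at 8 h, a difference of 1.76 (SE 0.39), had an adjusted p of 0.0498, and of 0.064 with the replicate number as a block. It was lost when any of 5 of the 6 arrays compared was left out, with the difference between 1.4 and 1.99 and adjusted p between 0.0569 and 0.776.

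F55G11.2, the other CUB-like gene, was called at low acrylamide at 8 h and not at 4 h. At 4 h it had 145, 119 and 362 in acrylamide controls, 415, 447 and 606.5 at low, 3781, 2894 and 6060 at mid and 4609, 7211 and 5742 at high dose. The low group lay above control, but the difference of 1.15 (SE 0.31) did not pass (adjusted p = 0.438). Without replicate 3 of the control, whose signal was 362, it was 1.55 with an adjusted p of 0.0306. At 8 h low acrylamide gave 757, 647 and 718 against 154, 118 and 133 in control, a difference of 2.03 (SE 0.31, adjusted p = 0.000622). Mid acrylamide against control differed by 4.1 (SE 0.31, adjusted p = 5.77e-09) at 4 h, a 17.1-fold difference.

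For F55G11.2 the low mercury dose was already near the top of the range at 4 h. At 4 h mercury gave 74, 99 and 137 in control, 1205, 1329 and 1862 at low, 1124, 1696 and 1902 at mid and 1374, 1709 and 1832 at high dose, so the 3 exposed groups overlapped each other and not the control. Low mercury against control differed by 3.29 (SE 0.25, adjusted p = 4.55e-10) at 4 h and 1.62 (SE 0.25, adjusted p = 0.000498) at 8 h. Cadmium at 4 h gave 96, 106 and 97 in control, 132, 231 and 1104 at low, 3684 and 993 at mid and 714.5, 821 and 574 at high dose. The low cadmium arrays spread widely, and neither time passed at that dose (1.38, SE 0.49, adjusted p = 0.561 at 4 h, and 0.64, SE 0.49, adjusted p = 1 at 8 h). Mid cadmium differed from control by 3.71 (SE 0.55, adjusted p = 9.3e-05) at 4 h.

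W06H8.2 was dim in controls and bright at every acrylamide dose, so the size of its folds depends on the 51 added to each signal. With acrylamide at 8 h it had 18.5, 71 and 32 in control, 2644, 2840 and 3524 at low, 12603, 10111 and 11100 at mid and 5958, 14143 and 10443 at high dose. Control and low dose were far apart and the mid and high groups overlapped. Low acrylamide against control differed by 5.09 (SE 0.58, adjusted p = 1.03e-05), a 34.2-fold difference, and mid against control by 6.99 (SE 0.58, adjusted p = 8.37e-09), a 127-fold difference. With 1 added in place of 51 these differences were 6.38 and 8.3, and with 131 added 4.19 and 6.06. At 4 h the controls held an outlying array, with 38, 85 and 1365, and low acrylamide gave 1491, 2053 and 2456. That difference of 2.96 (SE 0.58, adjusted p = 0.0242) was lost when any of the other 5 arrays was left out, with the difference between 2.2 and 3.16 and adjusted p between 0.0504 and 0.342. The outlying array, replicate 3, also held the highest C32H11.4 and F55G11.2 signals of its group.

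In the metals W06H8.2 was raised at the low dose mainly at 4 h. Mercury at 4 h gave 88, 35 and 68 in control, 1462, 1258 and 2797 at low, 4899, 3865 and 3825 at mid and 3700, 5063 and 4720 at high dose. Low mercury against control differed by 3.98 (SE 0.24, adjusted p = 2.92e-12). At 8 h low mercury gave 164, 224.5 and 269 against 113, 55 and 83 in control, a difference of 1.01 (SE 0.24, adjusted p = 0.0376). That call was lost when any of 4 of the 6 arrays was left out, with the difference between 0.85 and 1.01 and adjusted p between 0.143 and 0.175. Low cadmium at 4 h gave 493, 360 and 1421 against 44, 48 and 17 in control, a difference of 3 (SE 0.46, adjusted p = 0.000327). At 8 h low cadmium gave 68, 19.7 and 294 against 51, 8.4 and 9.5 in control, the groups overlapped, and the difference of 0.99 (SE 0.46) did not pass (adjusted p = 1).

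T19D12.3, the annotated pseudogene, was not called with low acrylamide and rose with mid acrylamide. At 4 h acrylamide gave 99, 40 and 141 in control, 106, 78 and 76 at low, 901, 949 and 1230 at mid and 1816, 2876 and 3269 at high dose. The control and low groups overlapped and the upper groups did not overlap anything below them. At 4 h low acrylamide against control differed by -0.01 (95% interval -0.59 to 0.57, adjusted p = 1), and mid against control by 2.96 (SE 0.28, adjusted p = 1.07e-07). At 8 h low acrylamide gave 224, 225 and 175 against 94, 66 and 75 in control. These groups did not overlap, with mean log2 levels of 8.01 and 7.01, but the difference did not pass. Mercury at 4 h gave 64, 51 and 58 in control, 375, 309 and 551 at low, 820, 886.5 and 1066 at mid and 944, 857 and 924 at high dose. Low mercury was 2.06 above control (SE 0.2, adjusted p = 6.23e-08). In cadmium at 4 h it had 38, 63 and 48 in control, 42, 37 and 156 at low, 346 and 203 at mid and 150, 176 and 165 at high dose. Mid cadmium against control differed by 1.66 (SE 0.31, adjusted p = 0.00108) at 4 h, which without mid replicate 1 was 1.34 with an adjusted p of 0.064.

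Y38H6C.8 was nearly dark in controls. Acrylamide at 8 h gave 8.8, 34 and 56.5 in control, 21, 9.8 and 49 at low, 471, 370 and 249 at mid and 1278, 999 and 750 at high dose. Low dose and control overlapped and each higher group stood clear of the one below it. Low acrylamide against control differed by -0.11 (95% interval -0.89 to 0.67, adjusted p = 1), and mid against control by 2.3 (SE 0.38, adjusted p = 0.000323). The mid dose at 4 h, with a difference of 1.41 (SE 0.38), did not pass (adjusted p = 0.0626), but did with the replicate number as a block (adjusted p = 0.032). Mercury at 4 h gave 19, 46 and 19 in control, 164, 278 and 221 at low, 1751, 1663 and 1221 at mid and 588, 422 and 319 at high dose. All mid mercury arrays were above all high ones at 4 h, and the mean mid signal was 349% of the high one at 4 h and 208% at 8 h. Low mercury differed from control by 1.78 (SE 0.31, adjusted p = 0.000533) at 4 h, and low cadmium by 1.73 (SE 0.5, adjusted p = 0.18), where the arrays ran 188.5, 72 and 931 against 19, 34 and 82. Without low replicate 2, the dimmest of these, low cadmium differed by 2.39 (adjusted p = 0.0108).

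F45D3.4 was called at the mid dose in 5 of 6 combinations and at the low dose in none. Mercury at 4 h gave 453, 937 and 954 in control, 379, 837 and 1274.5 at low, 2042, 3815.5 and 4614 at mid and 3852, 4916 and 7079 at high dose. Low mercury and control overlapped, with a difference of 0.01 (95% interval -0.67 to 0.68, adjusted p = 0.999), and mid mercury was 2.08 above control (SE 0.33, adjusted p = 2.93e-05). Acrylamide at 8 h gave 547, 742 and 592.5 in control, 414, 685.5 and 693 at low, 1683.5, 1613 and 1546.5 at mid and 1919.5, 2466 and 3519 at high dose. The mid acrylamide difference was 1.31 (SE 0.27, adjusted p = 0.00406). Mid cadmium at 8 h lay above control on every array but did not pass (1.1, SE 0.31, adjusted p = 0.0611). It passed under 5 of the alternatives, with adjusted p between 0.00374 after quantile normalization and 0.0492 with the replicate block. A further probe set of F45D3.4, whose suffix marks possible cross-hybridization, was called at the mid dose at both times with each chemical, and for mid cadmium at 8 h it differed from control by 1.88 (SE 0.35, adjusted p = 0.00146). The probe sets of the gene gave the same direction there.

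C50F7.5 was called at the mid dose with mercury at both times, with cadmium at 4 h, and not with acrylamide. Mercury at 4 h gave 384, 231 and 392 in control, 730, 346 and 874 at low, 4382, 5034 and 5337 at mid and 5307, 4474 and 5553 at high dose, a step between low and mid with no overlap. Low mercury at 4 h differed from control by 0.8 (SE 0.25, adjusted p = 0.0949). It passed with the replicate number as a block (adjusted p = 0.0446) and without low replicate 2 (1.17, adjusted p = 0.00362). Mid mercury against control differed by 3.71 (SE 0.25, adjusted p = 1.03e-11) at 4 h and 2.4 (SE 0.25, adjusted p = 5.36e-08) at 8 h. Acrylamide at 4 h gave 410, 107 and 237 in control, 271, 140 and 275 at low, 314, 291 and 271 at mid and 1478.5, 1105 and 1125 at high dose. Here mid acrylamide still overlapped control, with a difference of 0.31 (95% interval -0.43 to 1.05, adjusted p = 0.999) at 4 h and 0.17 (95% interval -0.57 to 0.92, adjusted p = 0.955) at 8 h. Mid cadmium was called at 4 h only (2.12, SE 0.39, adjusted p = 0.00117), where its arrays were 1569 and 559 against 258, 114 and 183, and without mid replicate 1 the difference was 1.42 (adjusted p = 0.104). The mid doses of the chemicals are not matched, so this is no comparison between them. Of the further, dim probe sets of C50F7.5, one was bright enough for a test in the mercury series, where mid mercury at 4 h differed from control by 0.98 (SE 0.29, adjusted p = 0.018) and at 8 h, where it did not pass, by 0.81 (adjusted p = 0.0513).

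The differences of mid dose against low dose used neither controls nor high-dose arrays, although these entered the estimate of spread and the filter on dim probe sets. Of 42 combinations 27 were called, all higher at the mid dose. For acrylamide 4 of 7 genes were called at each time, where 0.586% and 0.707% of all probe sets were higher at 4 h and 8 h. For cadmium 5 were called at 4 h and 4 at 8 h, against 2.47% and 0.388%, and for mercury 5 at each time, against 4.28% and 8.34%. T19D12.3 and Y38H6C.8 were called in 6 of 6 combinations, F45D3.4 in 5, F55G11.2 in 4, W06H8.2 and C50F7.5 in 3 and C32H11.4 in none. Mean low-dose signals of T19D12.3 and Y38H6C.8 were under 131 with acrylamide at 4 h and with both metals at 8 h. That of W06H8.2 was under 131 with cadmium at 8 h. There these genes had little room to be called lower at the mid dose, so the direction of these calls is not independent of the filter. The mid dose is 5 times the low one for acrylamide, 4 times for cadmium and 2 times for mercury, so the steps are not of equal size.

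The steps ranged widely in size. Between low and mid acrylamide T19D12.3 differed by 2.97 (SE 0.28, adjusted p = 1.14e-06) at 4 h and 2.52 (SE 0.28, adjusted p = 1.26e-05) at 8 h. Its step in cadmium at 8 h, with 363, 516 and 392 at mid against 38, 43 and 68 at low dose, was 2.23 (SE 0.27, adjusted p = 3.71e-05). Y38H6C.8 at 8 h of mercury had 554, 1894 and 970.5 at mid against 69, 9.5 and 10.6 at low dose, a difference of 3.8 (SE 0.31, adjusted p = 1.18e-09). C50F7.5 at 4 h of mercury differed by 2.91 (SE 0.25, adjusted p = 6.9e-09), a 7.51-fold step over a doubling of the dose.

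No step of C32H11.4 was called. Its mid-minus-low differences ran from 0.39 to 1.25, all above 0, and the 95% interval at 4 h of mercury was -0.02 to 0.99. At 4 h of acrylamide its mean log2 levels were 12.65 at low and 13.81 at mid dose. All its mid arrays lay above all low arrays with acrylamide at both times and with each metal at 8 h. The lack of calls therefore does not show that C32H11.4 had no step. Without mid replicate 2 its cadmium step at 4 h was 1.6 (adjusted p = 0.00626), and after quantile normalization the step at 8 h was 1.47 (adjusted p = 0.0157). F55G11.2 had steps of 2.94 (SE 0.31, adjusted p = 4.02e-06) and 1.88 (SE 0.31, adjusted p = 0.00161) with acrylamide, and of 0.09 (95% interval -0.42 to 0.6) and 0.53 (95% interval 0.02 to 1.04) with mercury, which were not called, although the step at 8 h passed with the replicate number as a block (adjusted p = 0.0488) and without mid replicate 1 (0.84, adjusted p = 0.0163). W06H8.2 had a step of 3.98 (SE 0.24, adjusted p = 2.98e-12) at 8 h of mercury and of 1.25 (SE 0.24, adjusted p = 0.000729) at 4 h. In a fit of the compared groups alone, which has few residual degrees of freedom, the 5 cadmium calls at 4 h (adjusted p = 0.452) and the Y38H6C.8 step in acrylamide at 4 h (adjusted p = 0.0916) were lost. These cadmium calls rest on the pair of mid arrays: without mid replicate 1 none of the 5 passed (differences of 0.84 to 1.76, adjusted p between 0.555 and 0.737). Without low replicate 1 none of them passed either, and without low replicate 2 C50F7.5 alone did, with the lost differences between 1.19 and 2.1 and adjusted p between 0.0583 and 0.111. The Y38H6C.8 step in acrylamide at 4 h (1.72, SE 0.38, adjusted p = 0.0249) was lost without any of 5 arrays, with adjusted p up to 0.181. The F55G11.2 step in cadmium at 8 h (2.57, SE 0.49, adjusted p = 0.0101) was lost without any of 4 arrays, with adjusted p between 0.0583 and 0.208, and the F45D3.4 step in acrylamide at 8 h without low replicate 1 was 1.17 (adjusted p = 0.0646).

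**Figure D3:**
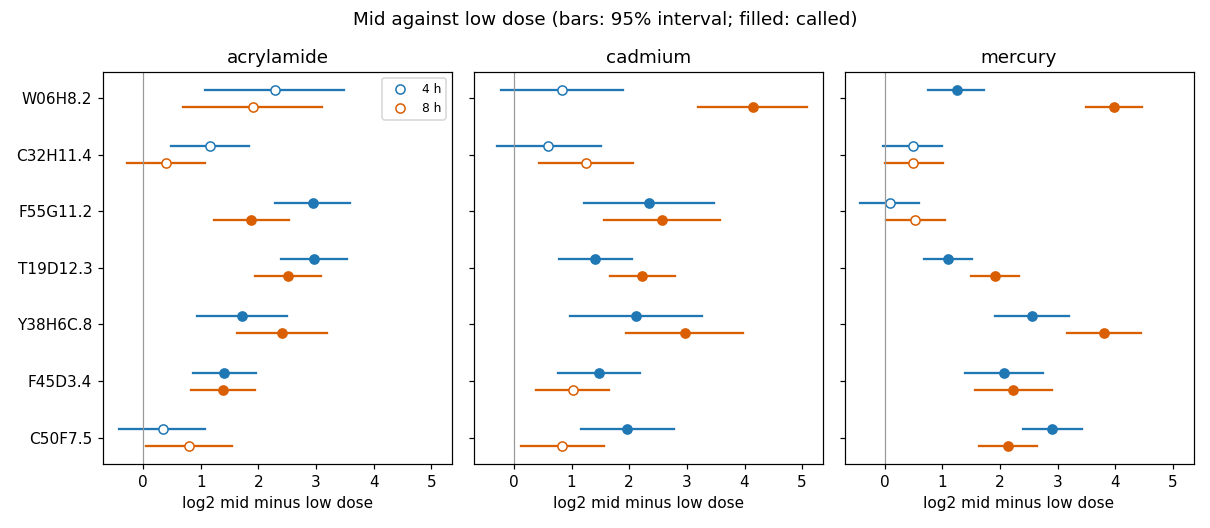
Difference in log2(signal + 51) between mid and low dose for the 7 genes in each chemical series, with 95% intervals, blue for 4 h and orange for 8 h, and filled points where the adjusted p was under 0.05. T19D12.3 and Y38H6C.8 have filled points in all 6 positions, and C32H11.4 has none.

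The later time was set against the earlier at fixed dose. Low mercury had the clearest decline: 4 of 7 genes fell between 4 h and 8 h, where 10.5% of all probe sets changed in either direction. The share of all probe sets that fell is not given here. W06H8.2 fell by 2.74 (log2 units, SE 0.24, adjusted p = 1.15e-08), with 164, 224.5 and 269 at 8 h against 1462, 1258 and 2797 at 4 h. Y38H6C.8, with 69, 9.5 and 10.6 at 8 h against 164, 278 and 221 at 4 h, fell by 1.81 (SE 0.31, adjusted p = 0.000243). T19D12.3 fell by 1.45 (SE 0.2, adjusted p = 1.51e-05), with 111, 108 and 126.5 at 8 h against 375, 309 and 551 at 4 h. F55G11.2 fell by 1.09 (SE 0.25, adjusted p = 0.00403), with 582.5, 669 and 699 at 8 h against 1205, 1329 and 1862 at 4 h. For these 4 genes no array at 8 h reached the lowest array at 4 h. C32H11.4, with 2129, 2854 and 2788 at 8 h against 4988, 3195 and 4018 at 4 h, was not called in the main fit. It was called lower after quantile normalization (-0.63, adjusted p = 0.041) and in a fit of the compared groups alone (-0.63, adjusted p = 0.0401). Controls of the mercury series differed between 8 h and 4 h by 0.24 for W06H8.2, -0.24 for Y38H6C.8, 0.11 for T19D12.3 and 0.58 for F55G11.2, given here without a test, and for F55G11.2 all control arrays at 8 h lay above those at 4 h.

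No decline was called at mid mercury, where 7.23% of all probe sets changed between the times. With the replicate number as a block, where same-numbered arrays deviated together (correlations of 0.2 to 0.37), T19D12.3 (-0.64, adjusted p = 0.023) and F55G11.2 (-0.65, adjusted p = 0.028) were called lower at 8 h. W06H8.2 had 4114, 4268 and 4100 at 8 h against 4899, 3865 and 3825 at 4 h, a difference of 0 (95% interval -0.49 to 0.49). T19D12.3 differed by -0.64 (SE 0.2, adjusted p = 0.0538) at mid mercury, and by -0.89 (adjusted p = 0.00522) without mid replicate 3 at 8 h. Without that array F55G11.2 differed by -0.91 (adjusted p = 0.0294). Whether the low-dose change differs from the mid-dose change was not tested.

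Low cadmium gave 3 calls among the 7 genes, where 5.47% of all probe sets changed. W06H8.2 fell by 2.27 (SE 0.46, adjusted p = 0.00357), with 68, 19.7 and 294 at 8 h against 493, 360 and 1421 at 4 h, and without replicate 2 at 8 h it fell by 1.77 (adjusted p = 0.0572). Y38H6C.8 fell by 1.67 (SE 0.5, adjusted p = 0.046), with 16.3, 9.6 and 170 at 8 h against 188.5, 72 and 931 at 4 h. The Y38H6C.8 groups overlapped, and without replicate 3 at 4 h the fall was 0.83 on the log2 scale (-0.83, adjusted p = 0.434), with 3 other arrays also ending the call. The call was also lost under 5 of the alternatives, with adjusted p between 0.0551 (no variance trend) and 0.129 (the compared groups alone). C50F7.5 rose by 1.75 (SE 0.35, adjusted p = 0.00349), with 653, 1115 and 711 at 8 h against 138.5, 154 and 371 at 4 h. Its cadmium controls differed by at least as much over the same hours, with 990, 1206 and 727 at 8 h against 258, 114 and 183 at 4 h, a difference of 2.14 (SE 0.35) given without a test. No gene was called at mid cadmium, low acrylamide or mid acrylamide, where 12.2%, 0.0121% and 0.212% of all probe sets changed. Without mid cadmium replicate 2 at 4 h, W06H8.2 differed by 1.71 (adjusted p = 0.0265) and F45D3.4 by -1.09 (adjusted p = 0.0215).

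Unexposed worms differed with time for some of the genes, and these values are a description because control arrays also served in the choice of genes. C50F7.5 was higher in controls at 8 h than at 4 h in every series, by 1.42 with acrylamide, 2.14 with cadmium and 1.08 with mercury, with no overlap of arrays. F45D3.4 was lower in controls at 4 h than at 0 h in every series, by 0.89, 1.2 and 0.51 on the log2 scale (-0.89, -1.2 and -0.51), and the arrays overlapped in the mercury series. Without replicate 1 of the acrylamide control at 0 h, which had been deposited on another scale, the acrylamide difference of F45D3.4 was -1.14. Worms of this stage go on developing during the exposure, so a comparison of times covers both exposure and age, which cannot be told apart without the controls.

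Cadmium and mercury shared a dose of 5 mg/L, the only dose by mass that 2 chemicals had in common. Equal mass is not an equal number of metal atoms. Each metal was set against its own controls, and the difference of these differences, cadmium minus mercury, was tested in a fit of all 80 arrays for 7 genes at 2 times, which makes 14 values adjusted over all probe sets. T19D12.3 at 4 h was the 1 call, in a comparison where 0.0392% of all probe sets were called lower. Its arrays were 42, 37 and 156 at cadmium against 38, 63 and 48 in cadmium controls, and 375, 309 and 551 at mercury against 64, 51 and 58 in mercury controls. The difference, in log2 units, was -1.8, so the change was smaller with cadmium (SE 0.36, 95% interval -2.53 to -1.08, adjusted p = 0.00409). In a fit of the 4 compared groups alone the adjusted p was 0.071.

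For the other 13 values no difference between the metals was called, and the intervals were wide. F55G11.2 at 4 h differed by -1.91 (SE 0.55, 95% interval -3.02 to -0.81, adjusted p = 0.297), and by -2.7 (adjusted p = 0.00173) without replicate 3 of low cadmium, whose signal of 1104 stood apart from 132 and 231. W06H8.2 at 4 h differed by -0.98 (95% interval -2.35 to 0.38) and C32H11.4 by -0.23 (95% interval -1.2 to 0.73). At 8 h, where 0.0224% of all probe sets were called lower, the estimates ran from -0.97 for F55G11.2 to 0.03 for F45D3.4, and the T19D12.3 interval was -1.14 to 0.31. These intervals leave room for differences of either sign for most genes.

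**Figure D4:**
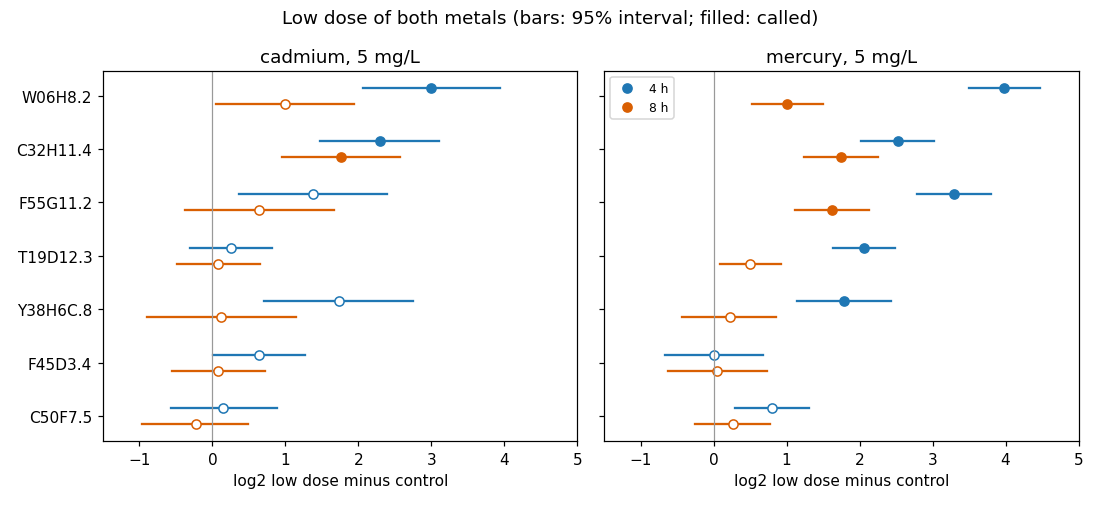
Difference in log2(signal + 51) between 5 mg/L of cadmium (left) or mercury (right) and the metal's own control, with 95% intervals, blue for 4 h and orange for 8 h, and filled points where the adjusted p was under 0.05. At 4 h T19D12.3 lies at 0.26 with cadmium and 2.06 with mercury.

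Replicate 3 of low cadmium stood above its group for W06H8.2, Y38H6C.8, F55G11.2, T19D12.3 and C32H11.4 at both times. At 8 h it had 4613 for C32H11.4 against 1843 and 2513.5 on the other arrays, and 720 for F55G11.2 against 163 and 386. The pair of mid cadmium arrays at 4 h also differed, with W06H8.2 at 716.5 and 1910 while F55G11.2 ran the other way at 3684 and 993. Part of what low and mid cadmium show for these genes therefore rests on single arrays.

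Across the 27 group means, each series centred on its own mean, the 7 genes followed each other with Pearson correlations between 0.536 (C50F7.5 with C32H11.4) and 0.925 (F55G11.2 with T19D12.3) and a median of 0.816 over 21 pairs. These are a description over groups that share arrays, scaling and the high-dose contrast taken to have chosen the genes. Among 13636 genes compared, the 3 most like W06H8.2 were msra-1, a methionine sulfoxide reductase (0.981), and the glutathione transferases gst-16 (0.966) and gst-4 (0.964). Y38H6C.8 was nearest to hrg-3, which codes for a heme transport peptide (0.946), cdr-4, of the cadmium-responsive family (0.937), and ZC443.3 (0.928). F45D3.4 was nearest to epg-9, an autophagy gene (0.976), dcar-1, a G protein-coupled receptor (0.957), and F47B8.2 (0.953), and C50F7.5 to F26F12.3 (0.935), Y43F8B.9 (0.925) and F17C11.4 (0.925).

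C32H11.4 was nearest to 2 genes of its own family, dod-24 (0.959) and dod-17 (0.943), and to gst-7 (0.941). F55G11.2 and T19D12.3 shared clec-3, a C-type lectin gene, as their nearest gene (0.953 and 0.951). F55G11.2 was next nearest to dod-17 (0.949) and to ftn-1, an iron-storing ferritin (0.932), and T19D12.3 to the glutathione transferases gst-30 (0.948) and gsto-2 (0.944). The probe sets of gst-16, cdr-4, dod-24 and ftn-1 carry a suffix for possible cross-hybridization.

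The CUB-like list held 19 names, of which C32H11.4 and F55G11.2 are members, dod-21 and C32H11.9 have no probe set of their own here, and 15 others were left, 13 or 14 of them tested. At high acrylamide 5 rose and 1 fell at 4 h and 4 rose and 3 fell at 8 h, where 3.11% and 3.05% of all probe sets rose and fell at 4 h and 4.15% and 4.61% at 8 h. At high cadmium 6 rose and 1 fell at 4 h and 10 rose and 1 fell at 8 h, against 2.83% and 4.26%, and 3.61% and 2.82%. At high mercury 11 rose and 1 fell at each time, against 9.03% and 13.4% at 4 h and 17.1% and 14% at 8 h. The list's median difference was 0.28 and 0.09 with acrylamide, 0.88 and 1.57 with cadmium and 2.07 and 1.92 with mercury at 4 h and 8 h. Over all probe sets the median lay between -0.12 and 0.01.

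Within the list dod-17 and dod-24 rose in all 6 comparisons, by 3.73 (SE 0.31) and 3.23 (SE 0.35) at 4 h of high acrylamide and by 1.07 and 1.92 (SE 0.17) at 8 h of high mercury. K08D8.5 went opposite ways, at -1.3 (SE 0.27, adjusted p = 0.00185) with high acrylamide at 8 h, 1.75 (SE 0.36, adjusted p = 0.00232) with high cadmium and 1.91 (SE 0.33, adjusted p = 6.13e-05) with high mercury. mbug-1 (F55G11.4), a near neighbour of F55G11.2, rose by 1.82 (SE 0.28, adjusted p = 6.19e-05) at 4 h of high acrylamide. With the metals at 8 h mbug-1 lay at -1.35 (SE 0.31, adjusted p = 0.00694) for cadmium and -1.71 (SE 0.24, adjusted p = 2.77e-06) for mercury. The differences between chemicals within this list were not tested.

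On the clones of the 7 genes lie 62 other genes, 42 of which were tested in the acrylamide series and 40 in each metal series. At the high dose at 8 h 5 of them rose and 3 fell with acrylamide, 5 rose and 3 fell with cadmium, and 10 rose and 8 fell with mercury. The shares of all probe sets that rose there were 4.15%, 3.61% and 17.1%. Those higher with each chemical were dod-24 (C32H11.12), on the clone of C32H11.4, and slc-36.3 (Y38H6C.17), of an amino acid transporter family, on the clone of Y38H6C.8. At 8 h slc-36.3 rose by 1.77 (SE 0.3, adjusted p = 0.000185) with high acrylamide, 2.01 (SE 0.24) with high cadmium and 1.09 (SE 0.22, adjusted p = 0.000339) with high mercury. The neighbours' median difference was between -0.05 and -0.02 at that dose and time, close to that of all probe sets.

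RNA came from whole worms, so fewer cells of a type and less RNA per cell cannot be told apart. Markers of intestine, body wall muscle, pharynx, neurons, epidermis, sperm, oocytes and yolk were all measurable. The summed signal of 5 intestine markers (ges-1, elt-2, act-5, ifb-2 and vha-6) was lower at the high dose than in controls in each series, with 5904 to 6560 against 15783 to 18682 for acrylamide at 8 h, 9076 to 14369 against 17614 to 23913 for cadmium, and 8547 to 9809 against 17784 to 20039 for mercury. Of the 5, act-5, ifb-2 and vha-6 were called lower with high acrylamide at 8 h and all were with high mercury at 8 h. With high cadmium at 8 h none was called lower, and ges-1 rose by 1.05 (SE 0.21, adjusted p = 0.0015). There act-5 (-0.97), ifb-2 (-0.87) and vha-6 (-0.67) lay below control without passing, and elt-2 lay at 0.26. At mid mercury 4 of these markers fell at 4 h, with sums of 8580 to 9430 against 19158 to 23393, while C32H11.4 and F55G11.2 rose. Sums for 3 oocyte, 2 yolk and 3 body wall muscle markers were lower at the high dose at 8 h in each series. For oocytes they were 661 to 1169 against 2126 to 4663 for acrylamide. Muscle sums were 4610 to 6886 against 8200 to 13445 for acrylamide and 5645 to 6697 against 7664 to 11224 for cadmium. For mercury they were 4049 to 6271 against 9634 to 12839. Epidermis sums were also lower with mercury and sperm sums with acrylamide, and both otherwise overlapped the controls. Pharynx sums overlapped them in each series, and neuron sums were higher with mercury only. The 3'/5' ratio of actin, a sign of RNA integrity, averaged 0.93 to 1.53 on the log2 scale in high-dose groups and 0.65 to 1.01 in control groups, while that of gapdh averaged -0.02 to 0.16 at the high dose and 0 to 0.17 in controls. The part of these shifts in the changes of the 7 genes was not tested.

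The arrays were comparable in depth of signal. A signal above 131 was found for 58.3% to 65.4% of probe sets, and arrays of a group correlated between 0.831 and 0.984 (median 0.965, 79 pairs). One array, replicate 1 of the acrylamide control at 0 h, had been deposited on another scale, with a trimmed mean of 214.9 against 500.1 to 500.2 for the other 79. After centring it entered the shared estimate of spread, the control mean at 0 h and the group means behind the correlations, and none of the tested differences.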

How the data were processed

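Polyadenylated RNA of whole worms was labelled and read on 80 expression arrays. The deposited values were MAS5 intensities on a linear scale, per the submitters' processing notes, and no version is given in the sources used here. By their values, the authors had scaled arrays to a shared trimmed mean. For this report 77 array-control probe sets were left out and every array was scaled to the same median signal, 202.9. Values were then taken as log2(signal + 51), 51 being the 20th percentile over all arrays. Probe sets were tested where at least 3 arrays of a series exceeded 131 (40th percentile): 16542 for acrylamide, 16225 for cadmium and 15886 for mercury.

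Of 22548 probe sets, 20766 matched 1 gene symbol, 887 several and 895 none, and names were updated through RefSeq (WBcel235). Each of the 7 genes was represented by 1 probe set, the brightest without a cross-hybridization suffix, and named genes beyond these were the 3 most like each, those on the same clones higher with all chemicals, and the largest changes of the CUB-like list. The members, lists and tests were chosen with earlier results of these data known.

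Groups followed the sample labels. Each series was fitted with limma 3.58.1 in R 4.3.3, 1 mean per group (0 h controls included), with trended moderated variances. P-values were adjusted by Benjamini-Hochberg within each comparison, and calls made at 0.05. Intervals are 95% and unadjusted. The script was tested on simulated data. Alternatives changed the scaling, pseudocount, filter, variance trend, samples in the fit, a replicate block and each array. Same-numbered arrays deviated together, with every correlation over 0.1, in 15 of 24 group comparisons and not in the others, so the main fit has no block. The value with the replicate number as a block is given beside each result where it changed a call in one of the 15, and beside 2 calls near the threshold in cadmium at 8 h. The number of arrays limits the precision. Sequences were not used here.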

Additional observations from a re-analysis of the deposited data

Results flagged for a closer look

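The response of T19D12.3 to 5 mg/L differed between the metals at 4 h by the test of the difference itself: cadmium minus mercury, each against its own controls, was -1.8 on the log2 scale (SE 0.36, adjusted p = 0.00409). Exposed cadmium arrays had signals of 42, 37 and 156, and exposed mercury arrays 375, 309 and 551. At 8 h the same difference was -0.42 (SE 0.36, adjusted p = 1). Leaving out any 1 of the 12 compared arrays kept the call at 4 h, and a fit of the 4 compared groups alone did not (adjusted p = 0.071).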

How the results depend on the processing

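The calls of the 7 genes against control at low and mid dose numbered 53 of 84. Under the alternatives they numbered between 43 (a fit of the compared groups alone) and 55 (the authors' scaling), and between 51 and 54 with single arrays left out. A value that did not meet the filter in a fit counts as not called. Calls of mid against low dose numbered 27 of 42, between 23 and 29, and between 22 and 28 with single arrays left out. Calls of 8 h against 4 h numbered 7, between 6 and 10, and between 5 and 9. The single call between the metals at 5 mg/L became 0 when only the compared groups were fitted, and the count lay between 1 and 2 with single arrays left out. Taking the replicate number as a block gave 55, 29, 10 and 1 calls. Same-numbered arrays deviated together for every pair in 15 of 24 comparisons. Over all 24 the correlations ran from -0.29 to 0.68, and because the pairing did not hold throughout, the main fit has no block. The block ended 1 call and added 8 among the single values.

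Of 1620 single values recomputed under the alternatives that keep all compared arrays, none that was called changed direction, 30 lost their call, 23 gained one and 11 uncalled values changed sign. With single arrays left out, 45 of 1211 lost a call and 10 gained one. A fit of the compared groups alone, which has few residual degrees of freedom, ended the calls of W06H8.2 (adjusted p = 1) and C32H11.4 (adjusted p = 0.29) at low acrylamide at 4 h, and those of C32H11.4, F45D3.4 and C50F7.5 at mid cadmium at 4 h. A pseudocount of 1 ended the W06H8.2 call at low acrylamide at 4 h (3.56, adjusted p = 0.087).

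The authors' scaling moved the median of all probe sets by over 0.1 in 5 of 26 comparisons, by 0.14 at most. Counts of called probe sets moved by over 1.5 times in 13 of 26 comparisons when only the compared groups were fitted, in 6 under the authors' scaling and in 5 with the block, for example at mid cadmium against control at 4 h from 2411 to 17 with the compared groups. There the share of higher calls was 30.2%, and 44.4% under the authors' scaling. The depth of the arrays limits W06H8.2, Y38H6C.8 and T19D12.3, whose controls were near background.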
